A study of Mus musculus with 4 samples.

Results

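Ifitm1, Oas1a and Ifngr2 are genes of the interferon system that stood out in a comparison of GFP-positive with GFP-negative cultured mouse B cells. Their probes were found by name: a probe name holding an NCBI Gene ID was translated to its mouse gene symbol. In all, 5 probes carried the symbol of 1 of the 3 genes, and 3 of these probes, 1 for each gene, were detected and entered the comparison, beside 15215 features tested in all, of which 3983 were genes with a symbol. The 3 genes were chosen by the size of this same difference between GFP-positive and GFP-negative arrays. Their values are therefore given as a description, without a test.

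Transcripts were measured on 4 Illumina mouse bead arrays. GFP-positive cells, whose cell type is labelled pre-plasmablasts, gave 2 arrays, and GFP-negative cells, whose cell type is labelled B cell blasts, gave the other 2. The sample titles call both groups B cell blasts. All cells came from the C57BL/6 background, carried the prdm1-/- genotype and were cultured with CD40 ligand, 10 U/mL IL-4 and 10 U/mL IL-5 until sorting on day 4. Prdm1 encodes Blimp-1, a transcription factor of plasma cell differentiation, and both groups lack it. Its transcript was not analysed here. The position of the GFP gene, the age of the mice and the origin of a group's arrays from separate cultures or animals are not in the labels. The p-values below thus reflect the spread between arrays, which can be purely technical.

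Interferons are secreted proteins that signal through paired receptor chains and Janus kinases (JAKs) to transcription factors of the STAT and IRF families. Type I interferons act through a DNA element called ISRE, and interferon-gamma through an element called GAS. Ifngr2 encodes the signalling chain of the interferon-gamma receptor, which binds JAK2. Oas1a encodes an oligoadenylate synthetase, an enzyme that senses double-stranded RNA and makes the messenger that activates RNase L. Ifitm1 encodes a small membrane protein of the interferon-induced transmembrane family, known for restricting the entry of viruses. In B cells, interferon-gamma is also known to influence antibody class switching.

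The stretches upstream of the 3 genes are shown because Oas1a and its near copy Oas1g, which were both lower in GFP-positive cells, have the same ISRE-type sequence next to their starts. Each window is the 250 bases before the transcription start in RefSeq (GRCm38.p6), read 5′ to 3′ on the gene's own strand. Capitals mark matches to the ISRE motif GAAANNGAAA (TTTCNNTTTC on the other strand) and to the GAS motif TTCNNNGAA, which reads the same on both strands. In the first 2 windows below the capitals at the right end are 2 overlapping ISRE matches. The Oas1a window is chr5:120907526-120907775 (minus strand), the Oas1g window chr5:120887614-120887863 (minus strand), the Ifitm1 window chr7:140967826-140968075 (plus strand) and the Ifngr2 window chr16:91546809-91547058 (plus strand).
Oas1a: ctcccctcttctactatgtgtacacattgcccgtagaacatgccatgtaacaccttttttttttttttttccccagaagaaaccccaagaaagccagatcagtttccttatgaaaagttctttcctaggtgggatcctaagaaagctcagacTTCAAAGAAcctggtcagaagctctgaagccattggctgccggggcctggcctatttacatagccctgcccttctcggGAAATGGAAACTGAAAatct
Oas1g: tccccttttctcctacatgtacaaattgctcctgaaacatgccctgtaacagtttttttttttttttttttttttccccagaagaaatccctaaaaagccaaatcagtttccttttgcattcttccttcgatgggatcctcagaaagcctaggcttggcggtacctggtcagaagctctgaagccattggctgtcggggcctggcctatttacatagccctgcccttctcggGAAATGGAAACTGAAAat
Ifitm1: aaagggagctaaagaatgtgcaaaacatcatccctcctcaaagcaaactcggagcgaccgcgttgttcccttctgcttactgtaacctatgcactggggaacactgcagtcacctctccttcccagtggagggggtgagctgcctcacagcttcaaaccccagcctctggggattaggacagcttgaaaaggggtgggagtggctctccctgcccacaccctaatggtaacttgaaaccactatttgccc
Ifngr2: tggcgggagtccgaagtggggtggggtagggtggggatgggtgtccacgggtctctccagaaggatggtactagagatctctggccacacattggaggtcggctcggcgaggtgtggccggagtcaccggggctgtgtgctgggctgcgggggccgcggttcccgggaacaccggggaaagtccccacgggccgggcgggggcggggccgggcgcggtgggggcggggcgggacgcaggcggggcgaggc

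The Oas1a window held ISRE matches at -20 and -14 and a GAS match at -98 relative to the start, and the Oas1g window held ISRE matches at -18 and -12. The windows of this gene pair were identical over a run of 56 bases that includes the ISRE matches. Neither motif was found in the Ifitm1 or the Ifngr2 window, which says only that these letters are not in these 250 bases. Across 32851 such windows in the RefSeq table, 2.98% held an ISRE match and 7.02% a GAS match.

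Values are deposited normalized intensities on a log2 scale, and a difference of 1 on it would be a 2-fold change if the scale were exactly logarithmic. Probes detected on no array mostly read between 7.88 and 8.16, a narrow band, so differences of dim probes may be compressed. A level of one probe cannot be set against that of another.

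The receptor chain Ifngr2 was lower in GFP-positive cells. Its probe read 10.92 and 11.26 in GFP-positive cells, against 12.07 and 12.14 in GFP-negative cells. Both GFP-positive arrays were low, and the groups were separated by 0.80. The means were 11.09 ± 0.24 in GFP-positive and 12.10 ± 0.05 in GFP-negative cells (SD, n = 2 each), a difference of -1.01, or nominally 2.02-fold lower. Among the 3983 genes with a symbol this was number 38 in order of decrease. The GFP-positive arrays lay 0.34 apart and the GFP-negative arrays 0.08 apart, so that Ifngr2 was the most variable of the 3 genes between replicates. In bulk samples such as these, fewer cells that express a gene and less RNA per cell cannot be told apart.

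The enzyme gene Oas1a was lower as well. It read 8.51 and 8.67 in GFP-positive cells, against 9.72 and 9.71 in GFP-negative cells. The GFP-negative arrays were almost equal and the groups were separated by 1.04. The means were 8.59 ± 0.11 in GFP-positive and 9.72 ± 0.00 in GFP-negative cells (SD, n = 2 each). The difference was -1.13, nominally 2.18-fold lower, and was number 27 in order of decrease. The GFP-positive values lay just above the band of undetected probes, although the probe was detected on all 4 arrays.

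Ifitm1 went the other way. It read 10.77 and 10.71 in GFP-positive cells, against 9.28 and 9.27 in GFP-negative cells. The arrays of each group agreed closely and the groups were separated by 1.43. The means were 10.74 ± 0.04 in GFP-positive and 9.27 ± 0.01 in GFP-negative cells (SD, n = 2 each). The difference was +1.47, nominally 2.77-fold higher, which was number 12 in order of increase.

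**Figure D1:**
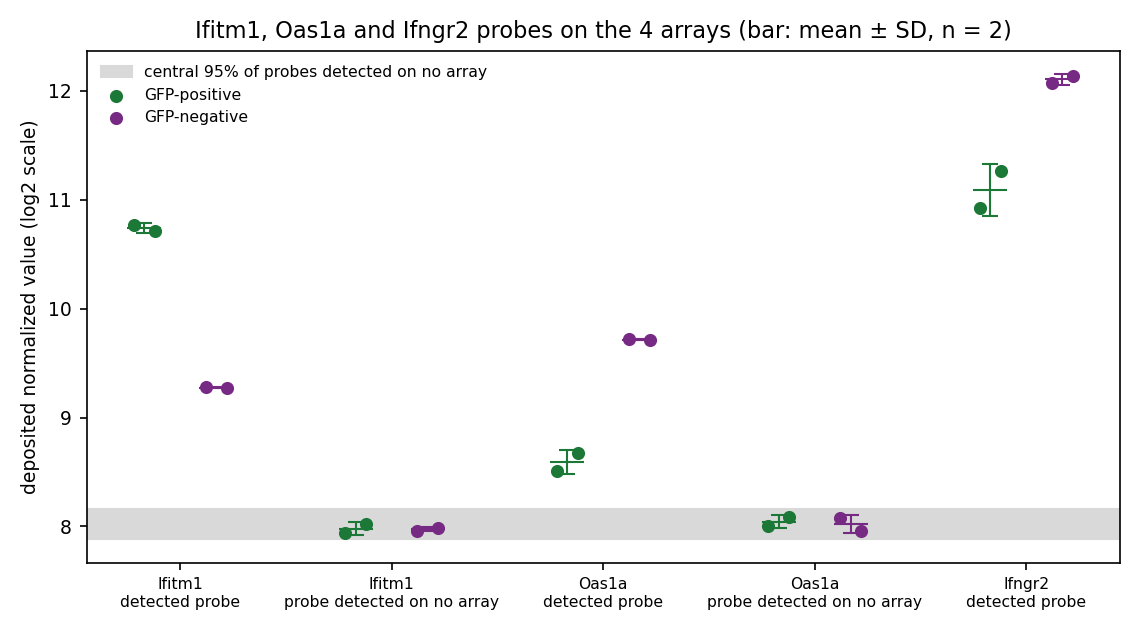
Deposited normalized value (log2 scale, vertical axis) of the 5 probes of Ifitm1, Oas1a and Ifngr2 on each array, with GFP-positive arrays left of GFP-negative arrays and bars for mean ± SD (n = 2). The detected Ifitm1 probe sits at 10.77 and 10.71 in GFP-positive cells, above 9.28 and 9.27 in GFP-negative cells, and the detected Oas1a and Ifngr2 probes are lower in GFP-positive cells.

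The groups did not overlap for any of the 3 detected probes, and the same was true of 55.8% of all features, so nothing is read from it. The second Ifitm1 probe and the second Oas1a probe were detected on 0 arrays. The second Ifitm1 probe read 7.94 and 8.02 in GFP-positive and 7.96 and 7.99 in GFP-negative cells. The second Oas1a probe averaged 8.05 ± 0.06 in GFP-positive and 8.02 ± 0.08 in GFP-negative cells (SD, n = 2 each). Both lay within the range typical of undetected probes, so each gene's difference rests on 1 probe. Ifngr2 had a single probe.

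Other genes were taken from 10 lists built around the interferon system, and 71 of them besides the 3 genes were measured. The list of JAK-STAT signalling also holds genes of other cytokine pathways, such as Jak3. The differences from here on were tested with limma, with p-values adjusted over all 15215 features. Of the 71 genes, 11 fell in GFP-positive cells, 0 rose and 60 were not called. At an unadjusted p under 0.05, 10 of the 71 were higher and 21 lower, beside 12.1% of all features higher and 14.6% lower at that threshold, which are also the shares to read the unadjusted counts of single lists against. After adjustment, 5.83% of all features were called higher and 5.29% lower, and among genes with a symbol 5.30% and 5.80%. The share of list genes called lower was 15.5%, and their median difference was -0.09, against -0.02 for all features. The count was sensitive to single arrays: it was 6 without GFP-positive replicate 1, 4 without GFP-positive replicate 2, 7 without GFP-negative replicate 1 and 4 without GFP-negative replicate 2, while between 2.21% and 4.01% of all features were called lower in these fits. After cyclic loess normalization 7 were lower and 2, Igtp and Pml, were higher. In that fit 4.30% of all features were lower and 947 of 15215 were higher. With the replicate number as a term, 21 list genes were lower and 10 higher, so the count of 0 higher depended on the setting. There, 14.0% of all features were lower and 1861 of 15215 higher. The labels state no pairing, although deviations of same-numbered arrays had a correlation of 0.44.

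**Figure D2:**
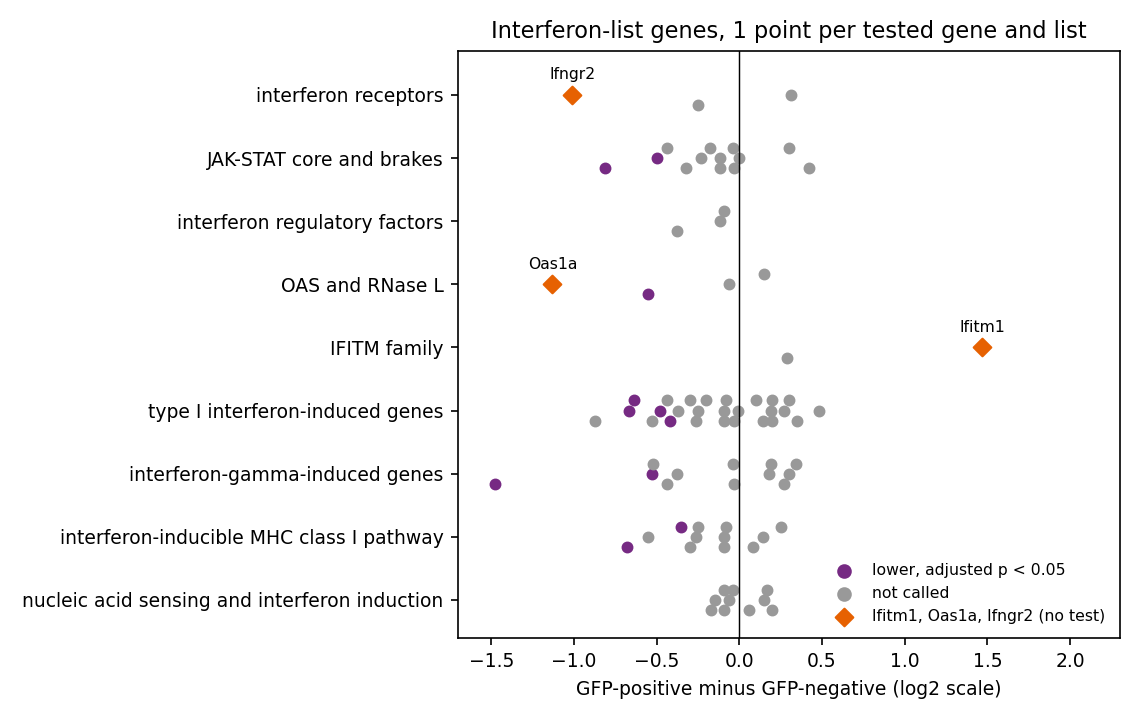
Difference between GFP-positive and GFP-negative cells (log2 scale, horizontal axis) for each tested gene of 9 interferon lists, with genes of several lists drawn once in each. The 11 genes called lower are coloured, 0 were called higher, and the diamonds mark Ifitm1 (+1.47), Oas1a (-1.13) and Ifngr2 (-1.01), which were not tested.

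Of 21 interferon genes listed as ligands, 14, mostly of the interferon-alpha family, had a named probe, and the other 7 were not analysed here. Of the 15 probes of these 14 genes, 2 were detected on 1 array and the others on 0, so that none entered the test. Their values ran from 7.89 to 8.21 in GFP-positive cells and from 7.86 to 8.20 in GFP-negative cells, which is the level of undetected probes in both groups.

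At the receptor level, 2 genes besides Ifngr2 were measured. Ifngr2 was chosen for the size of its difference, so it is not ranked against them. Il10rb, a chain shared by the receptors of IL-10 and interferon-lambda, read 10.06 and 10.21 in GFP-positive and 10.35 and 10.42 in GFP-negative cells (-0.25, SE 0.09, adjusted p = 0.150). Ifnlr1, the other chain of the interferon-lambda receptor, read 8.62 and 8.91 in GFP-positive and 8.45 and 8.47 in GFP-negative cells (+0.31, SE 0.12, adjusted p = 0.173). Neither passed the test. Ifngr1, which binds interferon-gamma together with Ifngr2, and the type I receptor chains Ifnar1 and Ifnar2 were not analysed here.

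Among 13 measured genes of JAK-STAT signalling and its brakes, 2 fell, 0 rose and 11 were not called (unadjusted p under 0.05: 1 higher and 5 lower). Both that fell encode kinases. Jak2, the kinase carried by the IFNGR2 chain, read 11.92 and 11.75 in GFP-positive cells, against 12.33 and 12.34 in GFP-negative cells (-0.50, SE 0.09, adjusted p = 0.0292). Jak3, the kinase of the common gamma chain through which IL-4 signals, read 10.08 and 9.70 in GFP-positive cells, against 10.76 and 10.64 in GFP-negative cells (-0.81, SE 0.14, adjusted p = 0.0255). The groups did not overlap for either gene, as for 55.8% of all features, so nothing is read from it. A dimmer Jak3 probe had a difference of -0.39 (adjusted p = 0.0975). Jak2 and Jak3 each lost the call without GFP-positive replicate 2, GFP-negative replicate 1 or GFP-negative replicate 2, with adjusted p up to 0.111 for Jak2 and 0.0673 for Jak3, and Jak2 also lost it after cyclic loess.

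None of the 3 measured interferon regulatory factors passed the test. Irf1, a transcription factor induced by interferon-gamma, read 10.04 and 10.52 in GFP-positive and 10.69 and 10.64 in GFP-negative cells (-0.38, SE 0.17, adjusted p = 0.226). The 2 GFP-positive arrays differed by more than the group means did. Without GFP-positive replicate 2 the difference was -0.62 and passed (adjusted p = 0.0442). Irf7, an amplifier of interferon production, had a difference of -0.09 (adjusted p = 0.563). Irf9, a DNA-binding subunit of the type I interferon response, had a difference of -0.12 (adjusted p = 0.712).

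In the OAS group, Oas1g moved in the same direction as Oas1a. It read 8.36 and 8.37 in GFP-positive cells, against 8.91 and 8.92 in GFP-negative cells, and fell by 0.55 (SE 0.08, adjusted p = 0.0122). The arrays of each group were nearly equal. The call was lost when GFP-positive replicate 1, GFP-positive replicate 2 or GFP-negative replicate 2 was left out (adjusted p up to 0.0601). A second, dimmer Oas1g probe read 8.25 and 8.17 in GFP-positive and 8.51 and 8.46 in GFP-negative cells, a difference of -0.28 that did not pass (adjusted p = 0.0921). Oas1a and Oas1g are close paralogs, and whether their probes tell the transcripts apart was not tested. The more distant family member Oas3 was detected on 3 arrays, just above the level of undetected probes. It did not pass the test, so no direction is read from it. It read 8.40 and 8.33 in GFP-positive and 8.18 and 8.26 in GFP-negative cells (+0.15, SE 0.08, adjusted p = 0.339). Pde12, an enzyme that degrades the OAS product, had a difference of -0.06 (adjusted p = 0.707).

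In the IFITM family, Ifitm2 was the second measured member. It read 8.86 and 8.88 in GFP-positive and 8.58 and 8.59 in GFP-negative cells, a difference of +0.29 (SE 0.08, adjusted p = 0.0752) with the same sign as that of Ifitm1 but below the threshold of the test. Ifitm3 was not analysed here.

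Of 26 measured genes induced by type I interferon, 4 fell, 0 rose and 22 were not called (unadjusted p under 0.05: 4 higher and 9 lower). Ly6e, a lipid-anchored surface protein, read 14.79 and 14.77 in GFP-positive cells, against 15.43 and 15.46 in GFP-negative cells (-0.67, SE 0.08, adjusted p = 0.00718). These values are near the top of the scale at 16.07, where differences may be compressed. Ifi205, a member of the interferon-activated p200 family, read 12.54 and 12.41 in GFP-positive cells, against 13.09 and 13.14 in GFP-negative cells (-0.64, SE 0.09, adjusted p = 0.0116). It lost its call without GFP-positive replicate 2 or GFP-negative replicate 2 (adjusted p up to 0.0543). Members of this family are similar in sequence, and whether the probe tells them apart was not tested.

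Plscr1, a phospholipid scramblase, read 10.09 and 10.24 in GFP-positive cells, against 10.68 and 10.62 in GFP-negative cells (-0.48, SE 0.09, adjusted p = 0.0315). Sp110, a nuclear body protein, read 10.61 and 10.44 in GFP-positive cells, against 10.94 and 10.95 in GFP-negative cells (-0.42, SE 0.09, adjusted p = 0.0456). Omitting any 1 of the 4 arrays ended both calls, with adjusted p between 0.0552 and 0.117 for Plscr1 and between 0.0675 and 0.164 for Sp110. Sp110 also lost it after cyclic loess, and its second probe had a difference of -0.16 (adjusted p = 0.384).

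Of 12 measured genes induced by interferon-gamma, 2 fell, 0 rose and 10 were not called (unadjusted p under 0.05: 3 higher and 4 lower). Gbp2b, a guanylate-binding protein of the family that attacks intracellular pathogens, had the largest difference of all 71 list genes. It read 9.49 and 9.28 in GFP-positive cells, against 10.90 and 10.84 in GFP-negative cells, and fell by 1.48 (SE 0.10, adjusted p = 0.00188). Both GFP-positive arrays lay far below both GFP-negative arrays, and the call held with any 1 array omitted (adjusted p up to 0.00801). Gch1, the first enzyme of tetrahydrobiopterin synthesis, read 9.46 and 9.38 in GFP-positive cells, against 10.09 and 9.82 in GFP-negative cells (-0.53, SE 0.11, adjusted p = 0.0444). It did not pass without GFP-positive replicate 1, GFP-positive replicate 2 or GFP-negative replicate 1 (adjusted p up to 0.145), nor after cyclic loess, and its dimmer probe had a difference of -0.28 (adjusted p = 0.115).

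Of 12 measured genes of the interferon-inducible MHC class I pathway, 2 fell, 0 rose and 10 were not called (unadjusted p under 0.05: 1 higher and 3 lower). H2-T23, the nonclassical class I molecule Qa-1, read 13.56 and 13.51 in GFP-positive cells, against 14.18 and 14.26 in GFP-negative cells (-0.68, SE 0.08, adjusted p = 0.00777). This held with any 1 array omitted (adjusted p up to 0.0406). A second H2-T23 probe read 12.89 and 13.12 in GFP-positive and 13.69 and 13.53 in GFP-negative cells, a fall of 0.60 (adjusted p = 0.0323). Psme1, a subunit of the PA28 proteasome activator, read 13.08 and 13.12 in GFP-positive cells, against 13.47 and 13.43 in GFP-negative cells (-0.35, SE 0.08, adjusted p = 0.0470). A second, dimmer Psme1 probe had the same difference of -0.35 and did not pass (adjusted p = 0.0635). Omitting any 1 array (adjusted p between 0.120 and 0.168), cyclic loess (0.0797), keeping only probes detected on all 4 arrays (0.0532) or an intensity trend (0.0772) ended the call.

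Of 10 measured genes that sense nucleic acids and induce interferon, 0 rose, 0 fell and 10 were not called by limma, with 0 in either direction at an unadjusted p under 0.05. Ticam1, the adaptor TRIF of Toll-like receptor signalling, had the smallest p of these, with a difference of -0.17 (SE 0.08, adjusted p = 0.268).

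**Figure D3:**
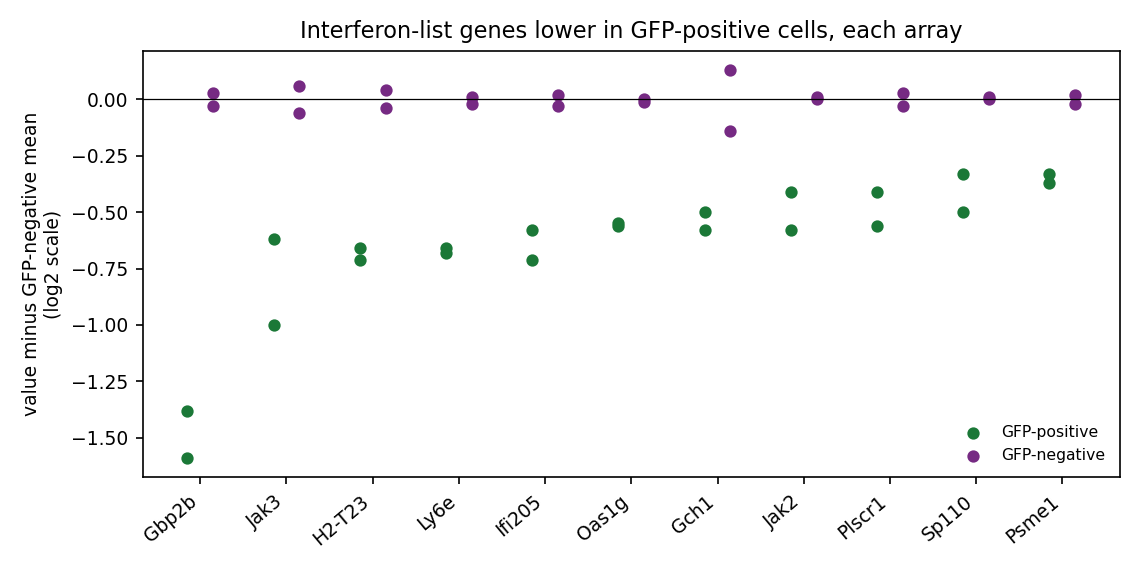
Value of each array minus the GFP-negative mean (log2 scale, vertical axis) for the 11 interferon-list genes called lower, with GFP-positive arrays left of GFP-negative arrays. Gbp2b lies lowest with a difference of -1.48, and the other 10 lie between -0.81 (Jak3) and -0.35 (Psme1).

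The ISRE motif was also searched upstream of the measured list genes that the RefSeq table holds. It was found in 4 of 10 genes called lower, in 13 of 54 genes not called and, of the 3 genes described first, in Oas1a alone. The GAS motif was found in 1 of 10 and in 7 of 54, so genes with either motif were present among those that did not pass the test. The lower genes with an ISRE match were Oas1g, shown above, Gbp2b, Ifi205 and H2-T23. The stretches around these last 3 matches follow, with the motif in capitals, at chr3:142594695-142594734 (plus strand), chr1:174031865-174031904 (minus strand) and chr17:36032801-36032840 (minus strand).
Gbp2b: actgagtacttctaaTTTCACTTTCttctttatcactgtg
Ifi205: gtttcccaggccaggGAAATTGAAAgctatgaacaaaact
H2-T23: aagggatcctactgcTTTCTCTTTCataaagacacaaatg

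Likeness of pattern was measured as the Euclidean distance between values over the 4 arrays after each gene's mean was subtracted, across 3880 other genes with a symbol. With 4 arrays in 2 groups, it mainly reflects the size of the group difference. Nearest to Ifitm1 were Pim2, a serine/threonine kinase (distance 0.11, difference +1.52), Lcp2, the adaptor SLP-76 (0.19, +1.36), and the tetraspanin gene Tspan2 (0.21, +1.30). Nearest to Oas1a were Cd40, the receptor for the CD40 ligand in the culture (0.08, -1.06), the zinc finger gene Zfp318 (0.10, -1.22) and the transcription factor gene Foxp1 (0.12, -1.22). Nearest to Ifngr2 were the class II peptide-loading gene H2-DMa (0.11, -1.11), the class II chain gene H2-Ab1 (0.12, -0.97) and Bcl7a (0.13, -1.04). GFP-positive replicate 1 was the lowest array for Ifngr2 and Oas1a and for each of the 6 genes nearest to them. These genes were picked by likeness over the same 4 arrays, so the shared lowest array follows largely from that choice. For example, H2-DMa read 13.37 and 13.74 in GFP-positive and 14.66 and 14.67 in GFP-negative cells.

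**Figure D4:**
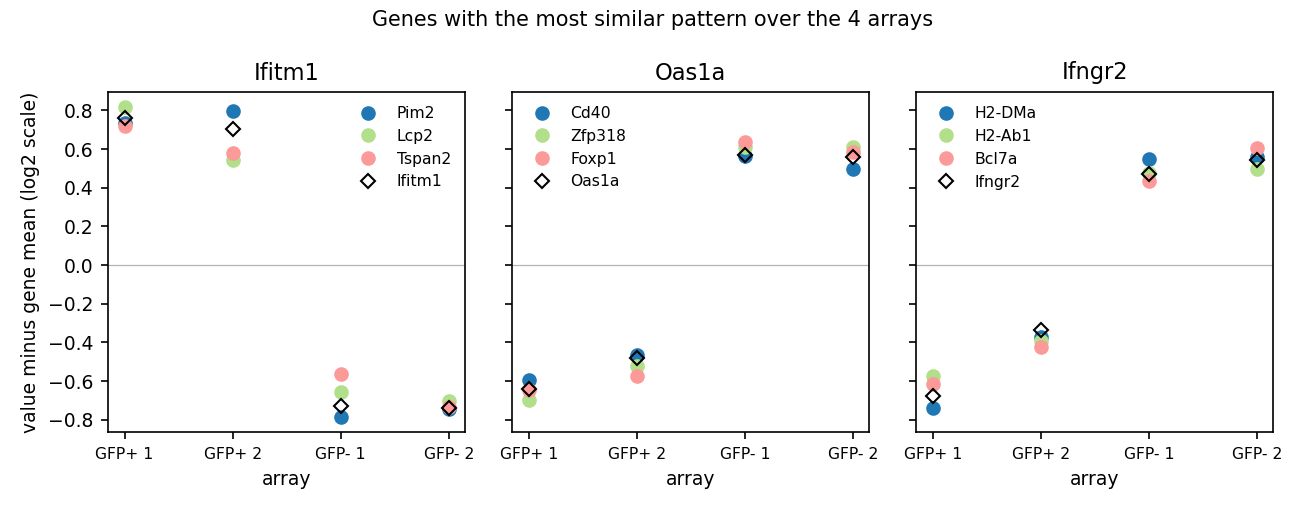
Value minus the gene's mean (log2 scale, vertical axis) on each of the 4 arrays for Ifitm1, Oas1a and Ifngr2 (open diamonds) and the 3 genes nearest to each (filled circles). The nearest genes lie within a distance of 0.21 of Ifitm1, 0.12 of Oas1a and 0.13 of Ifngr2.

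The reporter probe eGFP read 12.75 and 12.72 in GFP-positive and 9.28 and 9.39 in GFP-negative cells, and so followed the sort. Of the B-cell markers listed, Ebf1 alone had a named probe, and it was detected on all 4 arrays and fell by 0.72 (SE 0.08, adjusted p = 0.00562). Of the plasmablast markers, Xbp1 and Ell2 were higher, by 0.88 and 0.70 (adjusted p = 0.0161 and 0.0443). Sdc1, the surface marker syndecan-1, was detected on 0 arrays. Jchain was detected on 2 of the 4 arrays. It read 9.84 and 9.34 in GFP-positive cells, against 8.16 and 7.95 in GFP-negative cells, the level of undetected probes. Jchain may have entered the test only through the GFP-positive arrays, so its difference of +1.53 is given without a p-value. The marker lists were chosen with earlier results of these data known. Markers of T cells (3 with a probe), NK cells (1), neutrophils (5) and erythroid cells (1) were detected on fewer than 2 arrays. Of 6 macrophage and monocyte markers with a probe, Itgam was detected on 2 arrays and Cd68 on 4. Their differences were +0.32 (adjusted p = 0.0562) and +0.33 (adjusted p = 0.128), and neither passed. Lyz2 was detected on 1 array and read 8.21 at most, and Csf1r, C1qa and C1qb were detected on 0 arrays. The mean level of these 6 was 8.27 and 8.26 in GFP-positive and 8.13 and 8.12 in GFP-negative cells. Of 3 plasmacytoid dendritic cell markers with a probe, Pacsin1 was detected on all 4 arrays and fell by 1.41 (SE 0.10, adjusted p = 0.00206). Ccr9 was detected on 0 arrays, and Klk1 was detected on 1 array and read 8.25 at most. The mean level of these 3 was 8.43 and 8.47 in GFP-positive and 8.91 and 8.85 in GFP-negative cells. The part of other cell types in the differences of Ifitm1, Oas1a and Ifngr2 was not tested.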

How the data were processed

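Intensities of 4 Illumina mouse bead arrays, 2 of GFP-positive and 2 of GFP-negative cells, were taken as the authors deposited them, normalized with lumi per the submitters' processing notes. These values behave as log2 intensities (median 8.09, range 7.71 to 16.07), and the deposited columns have nearly equal distributions, with sorted values at most 0.00267 apart. The sources used here do not give the lumi version, background step or transformation. A second deposited table held 4 unnormalized signal columns whose names match no sample label, and these stayed out. The deposited detection p-values of that table, per the file headers, were used only to count arrays with a p under 0.05, without assigning columns to samples. Precision is limited by the number of arrays.

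Probes detected on at least 2 arrays (15787 of 45992) were kept. Names beginning with scl and 1 or 2 zeros were read as NCBI Gene IDs, and 82.6% of 11868 such probes matched the RefSeq gene table (GRCm38.p6). Each gene was represented by its detected probe with the highest mean. The group difference (GFP-positive minus GFP-negative) was estimated by limma 3.58.1 (lmFit, eBayes; R 4.3.3), with no block, and p-values were adjusted by Benjamini and Hochberg over 15215 features, with calls at an adjusted p under 0.05. The procedure was run on simulated data with independent arrays, which does not cover deviations shared by same-numbered arrays. Sequences are RefSeq's (GRCm38.p6).

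The 3 genes, the lists and the tests were chosen with earlier results of these data known. Genes were named by rule: all measured receptors, ligands, regulatory factors, OAS and IFITM members, up to 6 called genes of each other list (or the one with the smallest p), and the 3 genes nearest in pattern. Igtp and Pml, and the marker genes, are named outside it, Igtp and Pml after their values were seen. Alternatives were leaving out each array, cyclic loess, the mean of a gene's probes, each probe on its own, a replicate block, other detection filters and an intensity trend.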

Additional observations from a re-analysis of the deposited data

How the results depend on the processing

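The differences of Ifitm1, Oas1a and Ifngr2 kept their signs under cyclic loess, the only alternative run on them that could have turned a sign. Cyclic loess gave 1.50 for Ifitm1, -1.10 for Oas1a and -0.95 for Ifngr2, against +1.47, -1.13 and -1.01. Leaving out 1 array gave 1.44 to 1.50 for Ifitm1, -1.21 to -1.05 for Oas1a and -1.18 to -0.84 for Ifngr2. Since the groups did not overlap, leaving out an array could not turn a sign. The mean of a gene's detected probes could not change these differences either, as each gene had 1 detected probe. Called features ranged from 492 to 618 higher and from 336 to 610 lower when 1 array was left out, against 887 and 805. The interferon-list genes ranged from 4 to 7 lower, against 11, with 0 higher each time; cyclic loess gave 7 lower and 2 higher, and testing without a detection filter gave 12 lower and 1 higher, Ifitm2. Under cyclic loess 4.30% of all features were lower and 947 of 15215 were higher. Without a detection filter 113 list genes and 44294 features were tested, in place of 71 and 15215. In that fit 1.87% of features were lower and 891 of 44294 were higher. Its count of 12 therefore cannot be set directly against 11. A replicate block (the replicate number as a term) gave 1861 higher and 2125 lower features, and 14.0% of all features were lower. It gave 21 lower and 10 higher list genes. The higher genes included Ifitm2 (adjusted p = 0.0302) and Ifnlr1 (0.0284), and the lower genes included Irf1 (0.0180). The labels state no pairing, and deviations of same-numbered arrays had a correlation of 0.44. Irf9, not called, had differences from -0.31 to 0.07 with 1 array left out, with its sign turned at 0.00 without GFP-positive replicate 1 and at 0.07 without GFP-negative replicate 2. The cause of these shifts was not tested. Dim signals limit Oas1a, Oas1g, Oas3, Irf7, Ifnlr1, Ifitm2 and Ticam1, which lie close to undetected probes in at least 1 group.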
